A study of Mus musculus with 12 samples.

Results

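The genes described here encode the proteins of the cytosolic ribosome. They were chosen by symbol: the protein-coding genes named Rpl or Rps with a number and at most 1 letter, together with Rplp0, Rplp1, Rplp2 and Rpsa. The rule found 80 genes among the 51912 gene lines of each count file, of which 49 belong to the large (60S) subunit and 31 to the small (40S) subunit.

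RNA was measured in 12 libraries of neonatal mouse cortex at postnatal day 0, with 4 libraries in each of 3 groups. The first group is labelled control, and its alleles are not stated in the labels. The second is labelled H3.3 Neurod6 dKO (dKO-N). It is taken here to lack both genes for histone H3.3, H3f3a and H3f3b, through Neurod6-Cre, a driver of newly postmitotic excitatory neurons. The third is labelled H3.3 Emx1 dKO (dKO-E) and is taken here to lack the same genes through Emx1-Cre. This is a driver of cortical progenitors and so of the excitatory neurons and glia they give rise to. The cortex also holds interneurons, vessels and microglia outside both Cre lineages, and the labels state neither sex, nor pooling, nor whether each library came from its own animal. Ribosomal RNA was depleted, and libraries were made by ClickSeq, which joins adapters to randomly terminated cDNA.

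The ribosome translates messenger RNA: the small subunit decodes the message and the large subunit joins amino acids. Its proteins are needed in matched amounts, 1 copy of most per ribosome, and the genes for them are active in every cell. Many of their messenger RNAs start with an uninterrupted run of pyrimidines (C and T in the gene), the terminal oligopyrimidine tract, through which mTOR signalling sets how well they are translated. Growing and dividing cells are known for high ribosome production.

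To show what these gene starts look like, 30-base windows around the longest pyrimidine run within 50 bases of the RefSeq start (GRCm38.p6) are printed for the 3 genes that rose in both knockouts and for the 2 with the lowest mean change among genes with an entry. Capitals mark the pyrimidine run, and each sequence reads 5′ to 3′ on the strand of the gene.
Rpl34, chr3:130730393-130730422, minus strand: ctgacgcgccgCCTTCCCTgacgtacttcc
Rps2, chr17:24720083-24720112, plus strand: aaattgtcccttccgcggcgCCTCCCTCTT
Rps7, chr12:28635911-28635940, minus strand: ctgtccccaCCTCTTTTCTTCCgccacccg
Rpl41, chr10:128549119-128549148, minus strand: cgccattaaatagcagtaggCCTCCCTCTC
Rpl10, chrX:74270836-74270865, plus strand: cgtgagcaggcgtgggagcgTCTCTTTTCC
The first 3 genes rose in both knockouts and the last 2 did not, and all 5 windows hold a run of at least 8 pyrimidines. Each window was placed on its longest run, so finding a run there does not bear on which genes rose. Positions were counted from 1 at the RefSeq start, which can differ from the gene positions given below. The marked run begins at -13 in Rpl34, at 23 in Rps7 and at 41 in Rps2, Rpl41 and Rpl10. None of them begins at the RefSeq start. In Rps2, Rpl41 and Rpl10 the run reaches the end of the 50 bases searched. RefSeq held a start region for 60 of the 80 genes. A run of at least 8 pyrimidines within 50 bases of the start was found in 49 of the 60 (81.7%), against 35.7% of 27025 start regions of all genes, and a run of at least 10 was found in 39 of the 60, against 4864 of the 27025. In the 250 bases before to 50 after the start, on either strand, CCGGAAG, a core letter string bound by ETS factors, was present in 24 of the 60 ribosomal protein genes against 9.12% of all genes. TATAAA, the TATA box, was present in 8.33% against 14.2%. AAGATGGCG, bound by YY1, was present in 5.0% against 1.49%, and TGACGTCA, the cAMP response element, in 8.33% against 1.88%. These are matches of letters and were not tested for binding.

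The files were first checked for which of the 80 genes could be measured. A filter on low counts kept 72 of them. Rpl3l, Rpl10l and Rpl39l, paralogs known from muscle or testis, had no count in any library. Rps27l, a p53-inducible paralog of Rps27, had 1 to 10 counts per library. The other genes left out are broadly expressed family members. Rpl13 (chr8:123102350-123105244, plus strand, mm10) was listed at 0 in all 12 libraries, Rpl24 had 2 counts in all libraries together and Rpl13a had 44. Each of these lies largely inside another annotated gene on the same strand: 100% of the exonic bases of Rpl13, 93.4% of those of Rpl24 and 82.8% of those of Rpl13a. No tested member had more than 14.5% of its exonic bases in such a gene. Rpl35 and Rpl35a lie wholly inside opposite-strand genes and were not near absent. In control 1 to 4, Rpl35 was measured at 45.6, 60.7, 48.8 and 44.9 and Rpl35a at 7.77, 10.7, 11.7 and 11.4 TMM-scaled counts-per-million (CPM). Rpl35a nevertheless had the lowest level per exonic length of the tested members, 2.94 CPM per kb against a median of 21.7. A partial loss with opposite-strand overlap was not tested. How reads from overlapping genes were assigned is not stated in any source used here, so the near-absence of Rpl13, Rpl24 and Rpl13a is a property of these counts and was not traced to the RNA.

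**Figure D1:**
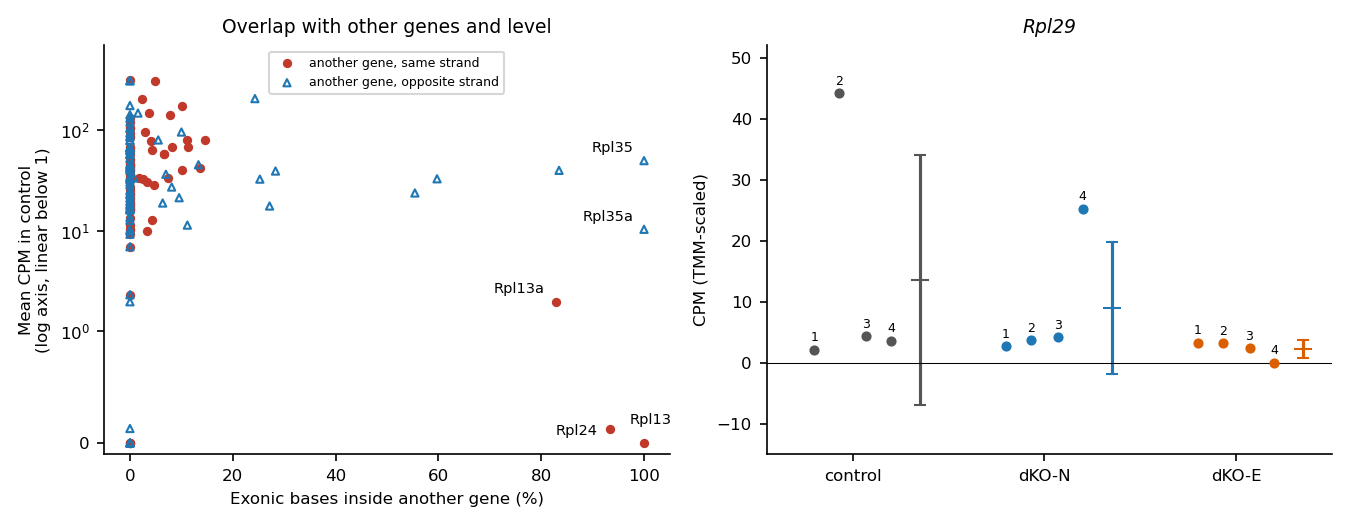
Left, mean CPM in the libraries labelled control (log axis, linear below 1) against the percentage of exonic bases inside another gene, 1 point per ribosomal protein gene and strand; Rpl13, Rpl24 and Rpl13a sit at 82.8% or more on the same strand and below 2 CPM, while Rpl35 and Rpl35a at 100% on the opposite strand do not. Right, Rpl29 in each numbered library with the group mean ± SD; control 2 and dKO-N 4 stand at 44.2 and 25.2 CPM and all others below 5.

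Rpl29 (chr9:106429454-106431568, plus strand), whose product is a large-subunit protein, did not pass the filter and stood apart from every other member. Control 1 to 4 measured 2.12, 44.2, 4.32 and 3.62 CPM, dKO-N 1 to 4 measured 2.72, 3.73, 4.14 and 25.2 CPM, and dKO-E 1 to 4 measured 3.27, 3.24, 2.34 and 0 CPM. Control 2 and dKO-N 4 held 83 and 84 counts, against 10 or fewer in the other libraries. These 2 high libraries belong to different groups. The lower of them exceeded the highest of the other 10 by 2.42 on the log2 scale, and no other member with counts separated these 2 libraries from the rest.

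Depth was low and uneven, from 722080 to 3502017 counts in genes per library, so 3 counts correspond to 0.901 to 4.14 CPM. In the libraries labelled control 1 and 3, H3f3a was at 17.7 and 16.4 CPM, below all 8 knockout libraries (22.1 to 37.8 CPM), which goes against their label, while control 2 and 4 were at 117 and 121 CPM. H3f3a passed in neither knockout (log2 fold change -0.96 in dKO-N and -1.28 in dKO-E, edgeR adjusted p = 0.494 and 0.228). H3f3b was at 121, 76.7, 143 and 84.2 CPM in control 1 to 4, 111 to 146 CPM in dKO-N and 167 to 180 CPM in dKO-E. H3f3b had a log2 fold change of 0.69 in dKO-E (edgeR adjusted p = 7.07e-04) and of 0.16 in dKO-N (adjusted p = 0.583). It was thus called lower in neither knockout and higher in dKO-E, which also goes against the labels as read here. Whether the counted bases lie in the deleted parts of the genes is not stated in any source used here. Groups are therefore named by their labels, and counts are also given without control 1 and 3. The Y-linked Ddx3y had 190 and 42 counts in dKO-E 3 and 4 and 0 in the other 10 libraries. In the test over all 11076 genes kept, edgeR called 11.3% in dKO-N against control, 20.2% in dKO-E against control and 6.84% between the knockouts.

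All 80 genes together made up a small share of the counts. They took 0.346%, 0.426%, 0.441% and 0.408% of the gene counts in control 1 to 4. The share was 0.492%, 0.561%, 0.453% and 0.412% in dKO-N 1 to 4 and 0.4996%, 0.445%, 0.472% and 0.468% in dKO-E 1 to 4. Every dKO-E library was above every library labelled control, and dKO-N overlapped with control in 1 library, dKO-N 4. Group means were 0.405% ± 0.0418 for control, 0.480% ± 0.0633 for dKO-N and 0.471% ± 0.0223 for dKO-E (SD, n = 4). On the TMM scale the sums were 4273 ± 378, 4826 ± 478 and 4556 ± 171 CPM, and all 3 groups overlapped. In bulk tissue, fewer cells of a type and less RNA per cell cannot be told apart.

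Other measures of the libraries moved with this share. The 4087 other coding genes of up to 5 kb took 1.69% ± 0.130 of the counts for control, 1.82% ± 0.326 for dKO-N and 1.82% ± 0.0614 for dKO-E. Reads mapped to several places, which leave no gene count, made up 2.66% ± 0.261, 3.43% ± 0.785 and 3.06% ± 0.204 of the libraries. Control 1 was lowest of its group, and dKO-N 2 highest of its group, in all 3 measures. Control 1 was also lowest of all 12 in 2 of them, the ribosomal protein share and the reads mapped to several places. The part of these measures in the ribosomal protein values was not tested.

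**Figure D2:**
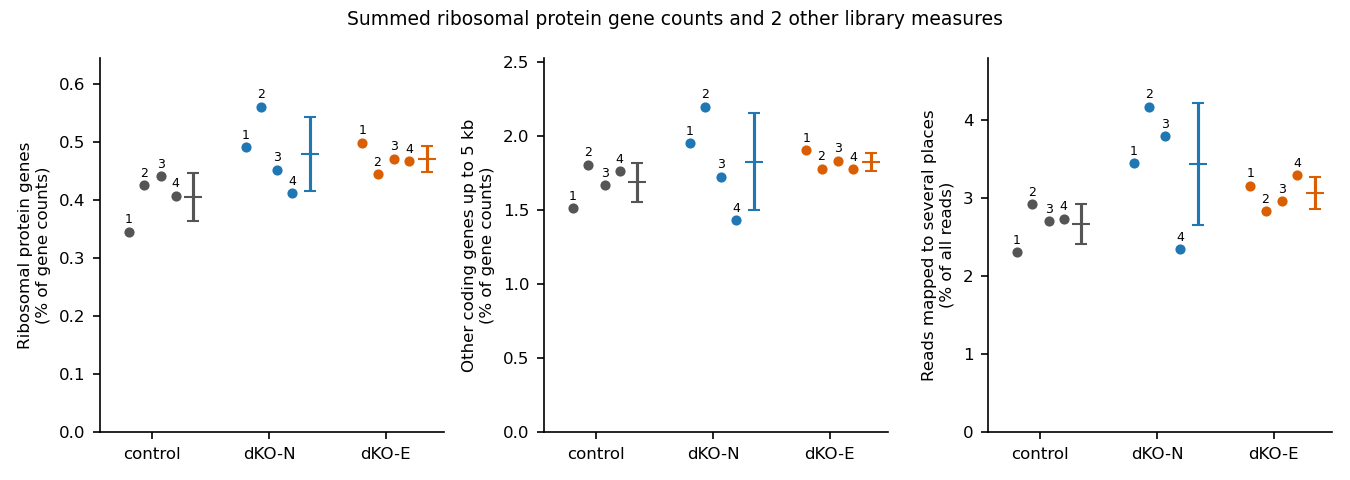
Percentage of gene counts in ribosomal protein genes (left), percentage in other coding genes of up to 5 kb (middle) and percentage of reads mapped to several places (right), 1 numbered point per library with the group mean ± SD beside it. The ribosomal protein share of every dKO-E library, 0.445% to 0.4996%, lies above that of every library labelled control, 0.346% to 0.441%.

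The libraries labelled Neurod6 dKO were examined first. In dKO-N, 4 of the 72 tested genes rose (5.56%) and 0 fell, against 5.04% of all tested genes called higher, 6.29% called lower and 11.3% called in either direction. The share of members called higher was thus near that of all genes, and the share called in either direction was below it. Rps2 rose by 56.4%, Rpl32 by 50.5%, Rpl34 by 49.9% and Rps7 by 34.1%. By direction alone, 60 of the 72 had a fold change above 0, and the median log2 fold change was 0.16 against 0.01 over all genes tested. At an unadjusted p under 0.05 in edgeR, 14 of the 72 members were higher and 0 lower. Over all 11076 genes tested, 2561 were under that p in either direction. The share of members in either direction was below that of all genes. The 2561 were not split by direction, so the 14 higher members have no matching share. DESeq2 called 4 members higher and 0 lower. The 42 large-subunit genes had a median of 0.16 and the 30 small-subunit genes one of 0.15.

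Rps2, a small-subunit protein at the entry of the messenger RNA channel (chr17:24718116-24721929, plus strand), measured 38.5, 26.6, 31.1 and 38.2 CPM in control 1 to 4. The dKO-N libraries 1 to 4 gave 31.3, 69.9, 46.9 and 55.6 CPM, and the dKO-E libraries 66.6, 55.1, 63.3 and 58.2 CPM. Every dKO-E library was above every library labelled control, while dKO-N 1 lay within the control range. Its log2 fold change was 0.64 in dKO-N (SE 0.167, edgeR adjusted p = 0.00727) and 0.84 in dKO-E (SE 0.153, adjusted p = 8.24e-05), and both calls held whichever of the 12 libraries was left out. Of its exonic bases, 7.32% lie in another gene on the same strand, and 11 named pseudogenes carry its symbol.

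Rpl34, a large-subunit protein (chr3:130726831-130730398, minus strand), measured 42.0, 59.1, 78.2 and 52.7 CPM in control 1 to 4. Its values were 87.1, 86.7, 96.5 and 81.1 CPM in dKO-N and 81.6, 85.9, 91.4 and 80.5 CPM in dKO-E, in the same order. All 8 knockout libraries were above all 4 labelled control. The log2 fold change was 0.58 in dKO-N (SE 0.140, edgeR adjusted p = 0.00381) and 0.56 in dKO-E (SE 0.131, adjusted p = 0.00178), and both calls held in each of the 12 leave-outs.

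Rps7, a small-subunit protein that can bind the p53 regulator Mdm2 (chr12:28630854-28635953, minus strand), measured 46.3, 52.2, 53.1 and 58.4 CPM in control 1 to 4. In dKO-N 1 to 4 the values were 65.3, 78.3, 75.8 and 64.6 CPM, and dKO-E 1 to 4 gave 73.2, 61.2, 70.7 and 69.4 CPM. Again no knockout library fell into the control range. Its log2 fold change was 0.42 in dKO-N (SE 0.127, edgeR adjusted p = 0.0232) and 0.39 in dKO-E (SE 0.119, adjusted p = 0.0173). The call was lost in 5 of the 12 leave-outs in dKO-N (adjusted p up to 0.105) and in 2 in dKO-E (up to 0.0894).

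Rpl32, a large-subunit protein (chr6:115805505-115808747, minus strand), measured 60.4, 76.7, 101 and 83.2 CPM in control 1 to 4. The dKO-N libraries 1 to 4 gave 143, 121, 142 and 94.9 CPM, and the dKO-E libraries 120, 85.1, 104 and 100.1 CPM. It passed in dKO-N (log2 fold change 0.59, SE 0.150, edgeR adjusted p = 0.00907, in every leave-out) and not in dKO-E (0.34, SE 0.143, adjusted p = 0.0923). In dKO-E it did pass without control 3, without dKO-N 4, without dKO-E 2, with library totals and with an offset for gene length. The difference between the knockouts did not pass either (log2 fold change -0.24 for dKO-E against dKO-N, adjusted p = 0.350), and dKO-N 4 lay below the highest library labelled control.

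**Figure D3:**
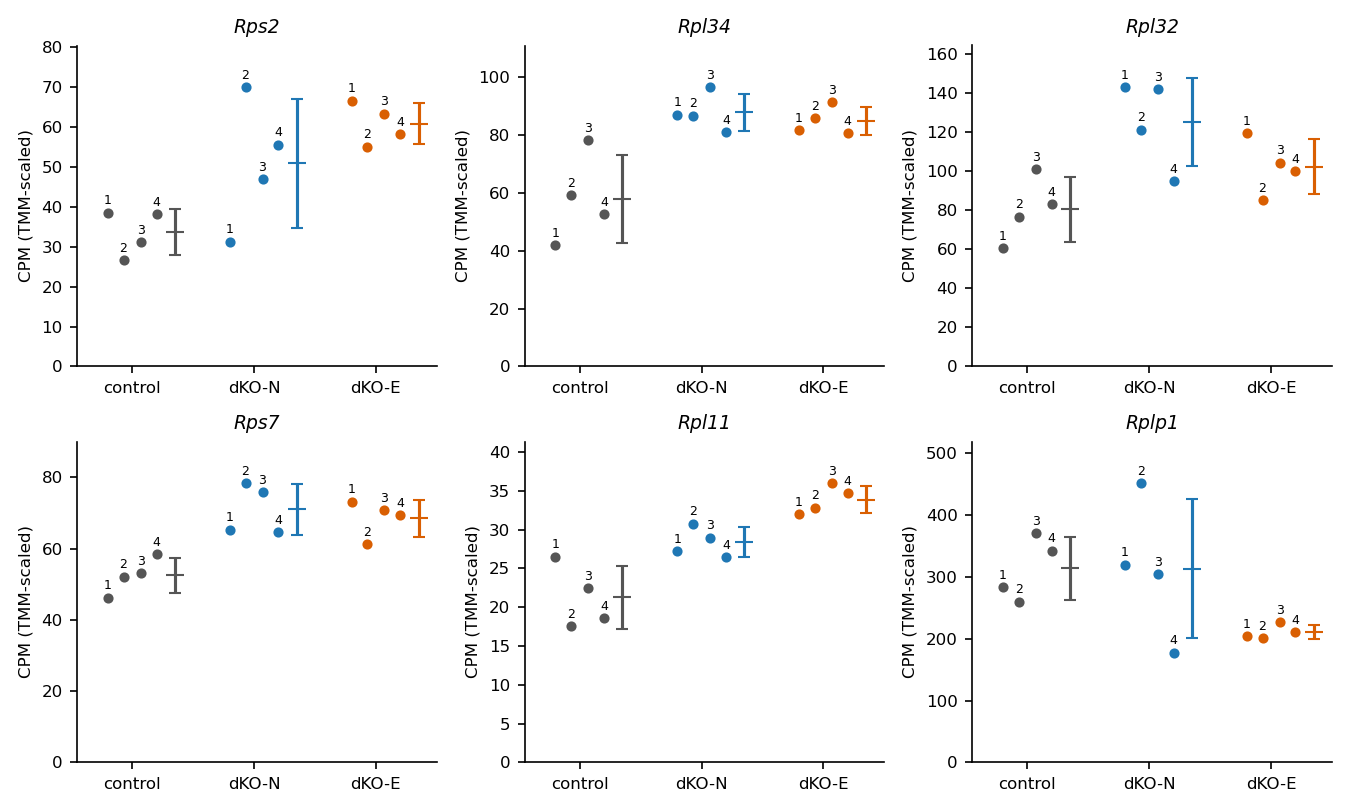
TMM-scaled CPM of 6 ribosomal protein genes in each numbered library, with the group mean ± SD beside the points (n = 4). Rpl34 and Rps7 lie above control in all 8 knockout libraries, Rps2 and Rpl11 in all 4 dKO-E libraries, and Rplp1 lies below control in all 4 dKO-E libraries and in dKO-N 4.

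The list of called members was longer in the libraries labelled Emx1 dKO. In dKO-E, 11 of 72 genes rose (15.3%) and 0 fell, against 10.1% of all genes called higher, 10.1% called lower and 20.2% called in either direction. The genes that rose included Rpl38, Rpl36a, Rps2, Rpl35a, Rpl11, Rpl34, Rps10, Rps7, Rpl12 and Rps24, and the changes ran from 1.27-fold (Rps24) to 1.87-fold (Rpl38). A fold change above 0 was found for 55 of the 72, and the median log2 fold change was 0.18 against 0.01 over all genes tested. At an unadjusted p under 0.05 in edgeR, 20 members were higher and 1, Rplp1, was lower. Over all 11076 genes tested, 3508 were under that p in either direction. The share of members in either direction was again below that of all genes. The 3508 were not split by direction, so the 20 higher members have no matching share. DESeq2 called 6 members higher and 0 lower. The median was 0.18 for the large-subunit and 0.19 for the small-subunit genes.

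The count in dKO-E depended on which libraries were kept. It was 3 without control 1 (all genes called higher 7.09%), 5 without dKO-E 1 (8.61%), 7 without dKO-E 3 (7.5%) and 7 without dKO-E 4 (7.52%). Without control 2, 3 or 4 it was 11 (7.48%), 10 (8.13%) and 10 (7.49%), and without dKO-E 2 it was 11 (7.5%). Without dKO-N 1 or 3 it was 12 (10.4%) and 11 (9.9%). Without dKO-N 2 or 4 it was 14 and 16, Rplp1 among them as lower. There 21.3% and 24.3% of all genes were called in either direction. Without control 1 and 3 together it was 3 (4.82%) and without dKO-E 3 and 4 it was 3 (4.89%). Rps2, Rpl34 and Rpl11 were the 3 called without control 1 and also without control 1 and 3. DESeq2's 6, which were Rpl11, Rpl12, Rpl34, Rpl38, Rps2 and Rps7, stand against 7.39% of all genes, the 4 called after thinning to equal depth against 6.58%, and the 20 called with library totals against 17.9%. In dKO-N, leaving out control 1 and 3 gave 3 genes, Rps2, Rpl34 and Rpl32, where 2.58% of all genes were called higher. Leaving out dKO-N 4 gave 9, where 4.07% of all genes were called higher. After thinning to equal depth Rps2 and Rpl32 were called higher in dKO-N (3.59% of all genes) and Rpl41 lower (5.3%), and Rpl34 and Rps7 were not called. DESeq2's 4 there stand against 4.22% and the 5 called with library totals against 6.86%. The share of members called thus lay above that of all genes in some of these fits and below it in others.

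Rpl11, which forms a complex with Rpl5 and 5S rRNA that binds Mdm2 (chr4:136028265-136053428, minus strand), measured 26.5, 17.6, 22.5 and 18.6 CPM in control 1 to 4. Its values were 27.2, 30.8, 28.9 and 26.4 CPM in dKO-N and 32.0, 32.8, 35.9 and 34.7 CPM in dKO-E, in the same order. All dKO-E libraries exceeded those labelled control, and dKO-N overlapped with control 1. The log2 fold change was 0.65 in dKO-E (SE 0.161, edgeR adjusted p = 0.00311, in all 12 leave-outs) and 0.37 in dKO-N (SE 0.180, adjusted p = 0.210). Its partner Rpl5 differed by 0.05 in dKO-E (adjusted p = 0.762) and by 0.19 in dKO-N (adjusted p = 0.213), at 207 ± 15.3 CPM in control.

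Rpl38, whose loss in the Tail-short mouse changes the body axis, averaged 10.3 ± 2.61, 16.8 ± 5.19 and 19.5 ± 5.43 CPM in control, dKO-N and dKO-E. In the 4 dKO-E libraries it was at 27.4, 17.8, 15.2 and 17.3 CPM, all above the control range of 6.71 to 13.0 CPM. It rose in dKO-E (log2 fold change 0.90, SE 0.254, edgeR adjusted p = 0.00915), a call kept in 10 of 12 leave-outs. The X-linked Rpl36a rose from 6.95 ± 2.79 to 12.6 ± 1.83 CPM (0.84, adjusted p = 0.0307) and Rpl35a from 10.4 ± 1.78 to 17.3 ± 3.68 CPM (0.72, adjusted p = 0.0288). Rpl36a had the lowest mean CPM of the tested members in control, and these calls held in 7 and 8 of 12 leave-outs.

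Rpl12, at the base of the ribosomal stalk, rose from 149 ± 13.9 to 188 ± 7.63 CPM in dKO-E (log2 fold change 0.34, edgeR adjusted p = 0.0165). Rps10 rose from 45.5 ± 4.33 to 60.3 ± 9.25 CPM (0.41, adjusted p = 0.0301) and Rps24 from 66.4 ± 2.30 to 85.0 ± 12.7 CPM (0.34, adjusted p = 0.0292). Of these, only Rps10 overlapped with control in a dKO-E library, dKO-E 2. The call was lost in 3 of the 12 leave-outs for Rpl12 and in 5 each for Rps10 and Rps24, and DESeq2 called neither of the last 2. Rps7, Rps10, Rps24, Rpl11 and Rpl35a are counterparts of human genes mutated in Diamond-Blackfan anaemia, as are Rpl5 and Rps19, which did not pass. The other tested members were not sorted by this disease, so the share of its genes that rose was not measured. Rps19 was at 18.5 ± 6.24, 20.6 ± 6.21 and 19.7 ± 2.96 CPM in control, dKO-N and dKO-E.

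**Figure D4:**
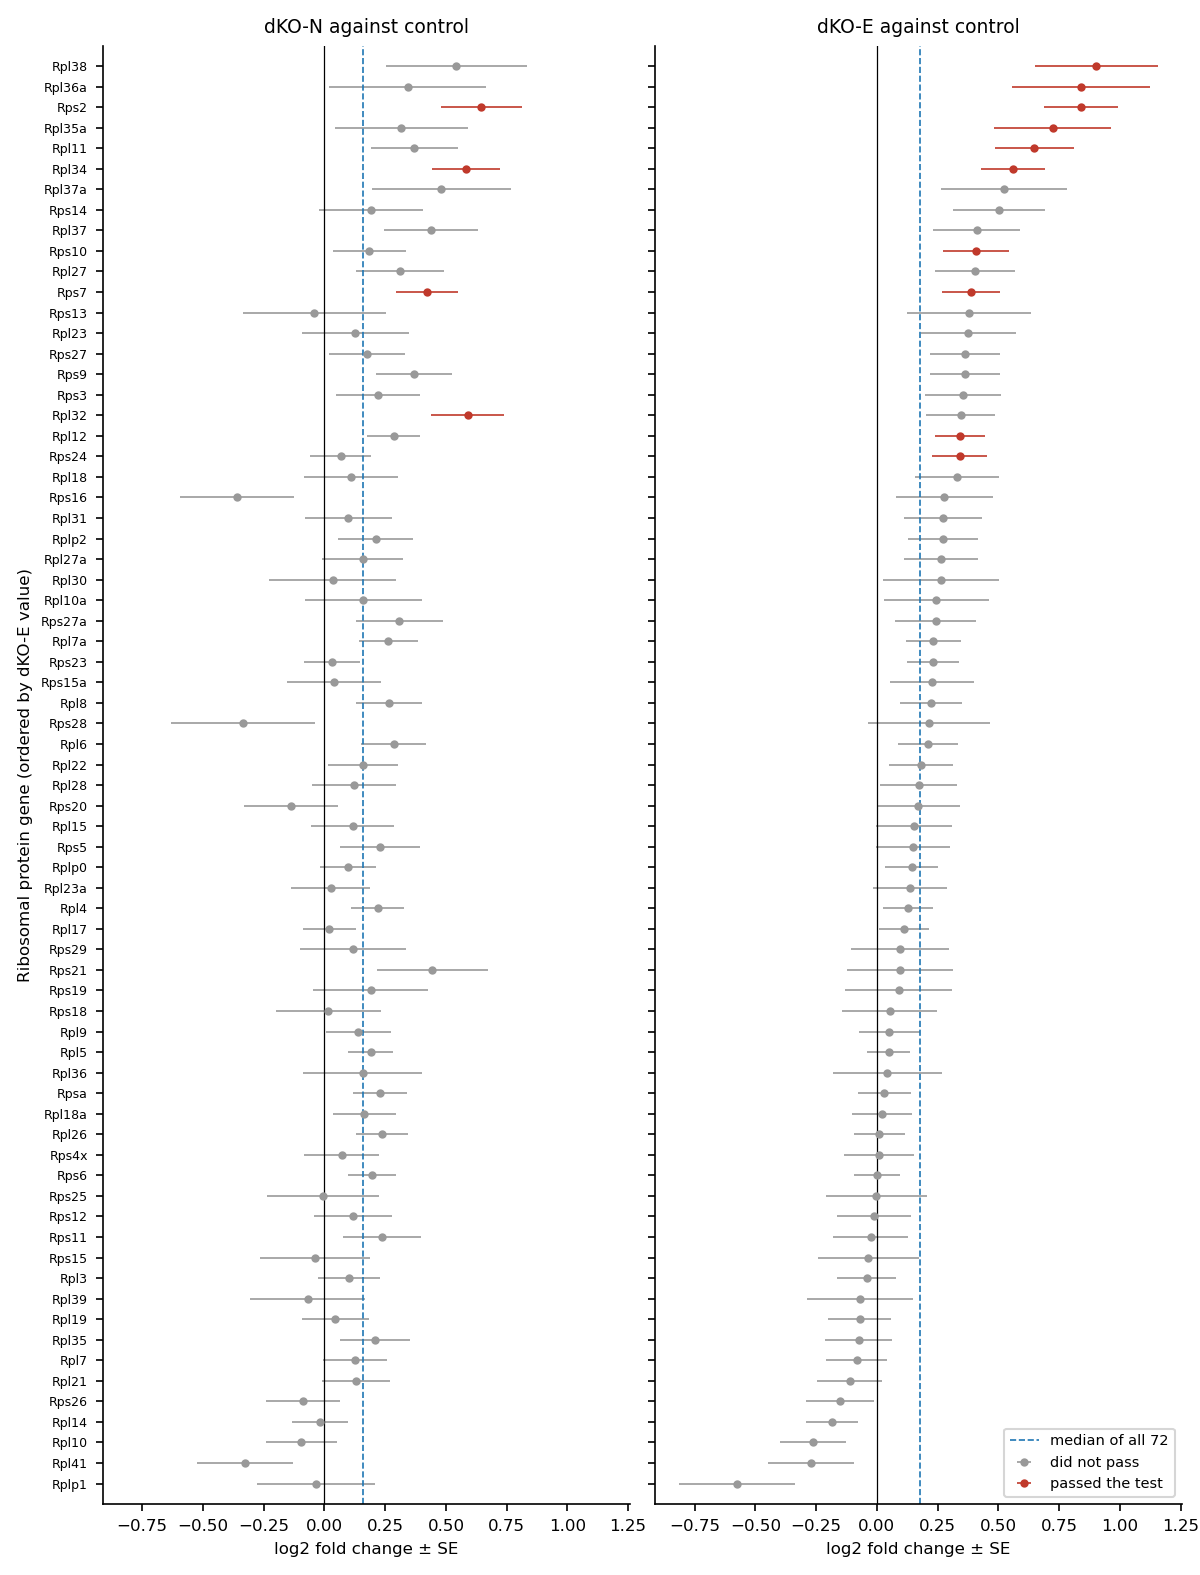
Log2 fold change ± SE of 70 of the 72 tested ribosomal protein genes in dKO-N (left) and dKO-E (right) against control, ordered by the dKO-E value; genes that passed the test are red and the dashed line is the median of the 72. The 4 genes drawn that passed in dKO-N and the 10 in dKO-E all lie above 0, and Rplp1 has the lowest dKO-E value, -0.58.

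The acidic stalk, made of Rplp0, Rplp1 and Rplp2, recruits elongation factors to the large subunit. Rplp1 had the highest level of all members per exonic length, 629 CPM per kb in control. Other abundant members were Rpsa at 97.9, Rps6 at 83.7, Rpl32 at 83.4 and Rpl17 at 79.4 CPM per kb. The median of the tested members was 21.7 CPM per kb and the lowest, Rpl35a, was at 2.94. Rplp1 (chr9:61913284-61914542, minus strand) measured 283, 260, 371 and 343 CPM in control 1 to 4. In dKO-N 1 to 4 the values were 320, 451, 305 and 178 CPM, and dKO-E 1 to 4 gave 204, 201, 227 and 210 CPM. The dKO-E libraries all lay below those labelled control, while dKO-N ran from below to above them.

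Rplp1 did not pass in dKO-E (log2 fold change -0.58, SE 0.239, edgeR adjusted p = 0.131). It did pass there as lower without dKO-N 4 (adjusted p = 0.00101), without dKO-N 2 (0.0252) and in a fit of control and dKO-E alone (9.90e-06). It also passed with no filter on low counts (7.88e-05) and with an offset for gene length (0.00648). It did not pass in the other settings, among them DESeq2 (0.0849), library totals (0.260), thinning to equal depth (0.121) and without control 1 and 3 (0.385). The value was negative in every setting. Its partners did not share this direction. Rplp0 was at 121 ± 17.1 CPM in control and 134 ± 17.1 in dKO-E (log2 fold change 0.14, adjusted p = 0.398), and Rplp2 at 57.8 ± 13.4 and 69.2 ± 5.55 CPM (0.27, adjusted p = 0.190).

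Of the other abundant members, Rps6, the substrate of S6 kinase, was at 133 ± 7.17, 153 ± 8.45 and 133 ± 10.9 CPM in control, dKO-N and dKO-E, and passed in neither knockout (edgeR adjusted p = 0.234 and 1.0). Rpsa, also known as a laminin receptor precursor, was at 310 ± 33.0, 365 ± 75.3 and 317 ± 25.6 CPM. Rpl17 was at 105 ± 12.6, 105 ± 7.51 and 113 ± 5.37 CPM. The X-linked Rps4x was at 43.6 ± 5.16, 45.7 ± 6.41 and 44.1 ± 7.98 CPM, and the X-linked Rpl10, needed for joining of the subunits, at 57.7 ± 4.24, 51.1 ± 10.1 and 48.0 ± 8.01 CPM. Rpl41, the shortest ribosomal protein, was at 33.7 ± 7.20, 28.95 ± 9.17 and 27.5 ± 2.08 CPM. None of these passed in either knockout in the fit of all 12 libraries, while Rpsa was called higher in dKO-N without dKO-N 4.

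Several members are known for roles outside the ribosome. Rpl22, needed in T cell development, was at 62.7 ± 12.8, 72.3 ± 11.6 and 71.3 ± 7.05 CPM in control, dKO-N and dKO-E, and Rpl23, which can bind Mdm2, at 19.7 ± 5.02, 22.8 ± 6.79 and 25.4 ± 1.13 CPM. Rps14, whose human counterpart is lost in the 5q- syndrome, was at 21.4 ± 5.32, 24.3 ± 8.27 and 29.9 ± 3.17 CPM (dKO-E log2 fold change 0.50, edgeR adjusted p = 0.0540). Rps25, used in translation from internal entry sites, was at 17.7 ± 3.77, 16.3 ± 5.15 and 17.7 ± 2.07 CPM. None passed in the fit of all 12 libraries. Rps14 did pass in dKO-E without control 2, without dKO-N 1, 2 or 4, in a fit of control and dKO-E alone and with library totals.

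Between the knockouts, 0 of 72 members passed, against 6.84% of all genes called, and the median log2 difference was 0.01. At an unadjusted p under 0.05 in edgeR, 2 members were higher in dKO-E, Rps16 and Rps24, and 2 were lower, Rpl26 among them. Over all 11076 genes tested, 2436 were under that p in either direction. DESeq2 called 0 members. Rps16, chosen after its values were seen as the member with the lowest p, measured 10.9, 17.7, 8.27 and 12.6 CPM in the dKO-N libraries and 21.6, 19.0, 20.7 and 18.5 CPM in the dKO-E libraries. The knockouts did not overlap for it, and the libraries labelled control, at 14.5, 17.6, 15.1 and 19.1 CPM, overlapped with both (log2 difference 0.64, SE 0.230, edgeR adjusted p = 0.0847). With a median SE of 0.16 per gene, small differences between the knockouts could not be resolved. Rpl34, Rps2 and Rps7 were called in both knockouts against the same control libraries, so those calls share their controls.

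The members also share short genes: their median length is 3328.5 bases, and 63 of 80 are at most 5 kb long. Among genes over 2 and up to 5 kb, the median log2 fold change of the 49 members was 0.16 in dKO-N and 0.17 in dKO-E, against -0.03 and -0.02 for the 533 other genes of that length. Among genes of up to 2 kb, the 8 members had a median of 0.07 in both knockouts and the 194 other genes 0.27 and 0.17. An offset for gene length gave 5 members higher in dKO-N (5.79% of all genes), and 12 higher (10.7% of all genes) and 1 lower, Rplp1, in dKO-E.

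**Figure D5:**
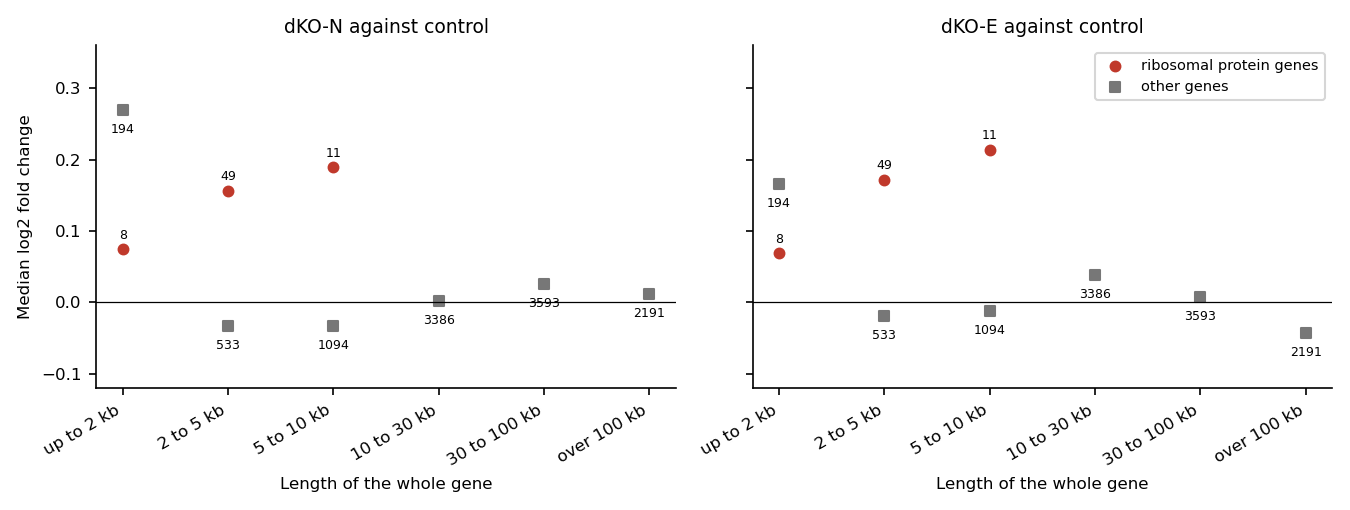
Median log2 fold change by length of the whole gene for ribosomal protein genes (red circles, classes with at least 8) and other genes (grey squares) in dKO-N (left) and dKO-E (right) against control, with the number of genes beside each point. Members of 2 to 5 kb lie at 0.16 and 0.17 and other genes of that length at -0.03 and -0.02.

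Introns of ribosomal protein genes are known hosts of snoRNA genes, and their messenger RNAs have left many processed copies in the genome. In GENCODE M21, 29 of the 80 genes hold 56 snoRNA genes on their own strand, with 5 in Rpl4, and 55 have 287 named pseudogenes, with 24 for Rpl31. Of the 27 tested snoRNA hosts, 2 rose in dKO-E with a median of 0.17, and of the 45 others, 9 rose with a median of 0.18. Of the 52 tested genes with a named pseudogene, 10 rose in dKO-E, and of the 20 without, 1 did (Rpl11). The medians were 0.15 and 0.22. Over all genes tested, 10.1% were called higher in dKO-E. In dKO-N, 2 of the 27 snoRNA hosts and 2 of the 45 others rose, against 5.04% of all genes. There, 3 of the 52 genes with a named pseudogene and 1 of the 20 without rose. These splits were not tested. The pseudogene lines held 199 to 440 counts per library. Reads that fit a gene and its copy equally well leave no gene count, so members with copies are uncertain in level.

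The genes that make or use ribosomes were examined as lists. Of 10 translation elongation factors, Eef1g rose (log2 fold change 0.33, edgeR adjusted p = 0.0443) and the neuronal Eef1a2 fell in dKO-N (-0.54, adjusted p = 0.0209), and Eef2, the translocation factor, fell in dKO-E (-0.30, adjusted p = 0.0282). DESeq2 called 0 of the 10 higher and 1 lower in each knockout. The list median was -0.18 in dKO-N and -0.05 in dKO-E. Of 36 initiation factors, 0 passed in dKO-N with edgeR or DESeq2 (1 at an unadjusted p under 0.05). In dKO-E 4 rose, the cap-binding Eif4e (0.42), Eif4h (0.41), Eif4b (0.39) and Eif3h (0.30), and the helicase Eif4a1 fell (-0.25), where DESeq2 called 3 higher and 0 lower.

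Of 12 tested genes of RNA polymerase I and its factors, which transcribe ribosomal RNA, 0 passed in either knockout with edgeR or DESeq2 (1 in each at an unadjusted p under 0.05, lower). Of 37 genes of ribosomal RNA processing, 0 passed in dKO-N with either tool (4 lower at an unadjusted p under 0.05), and in dKO-E Wdr43 rose (log2 fold change 0.44, edgeR adjusted p = 0.0046) while Utp14a (-0.74) and Rrp12 (-0.60) fell. Of 37 genes of subunit assembly and export, 0 passed in dKO-N with either tool (2 lower at an unadjusted p under 0.05), and Rsl24d1 (0.85) and Rpf1 (0.83) rose in dKO-E. In dKO-E DESeq2 called 1 higher and 2 lower in the processing list and 1 higher and 0 lower in the assembly list. The medians of these lists lay between -0.16 and -0.09 in dKO-N and between -0.14 and 0.04 in dKO-E, below those of the ribosomal protein genes. Of 24 genes of the mTOR pathway and the Myc family, Mycn rose in both (0.63 and 0.57), Max rose in dKO-E (0.67) and Myc fell in dKO-N (-1.23, edgeR adjusted p = 0.0359). DESeq2 called 1 of them higher and 0 lower in dKO-N and 2 higher and 0 lower in dKO-E. Of 10 tested p53 targets, Trp53inp1 rose in both (0.59 and 0.52), Mdm2 rose in dKO-E (0.57) and the noncoding Pvt1 fell in both (-0.86 and -0.80). With DESeq2, 0 p53 targets were higher and 1 lower in dKO-N, and 1 was higher and 1 lower in dKO-E.

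Markers of progenitors moved with the knockouts beside these values. Of 13 tested radial glia markers 5 rose in each knockout, and the sum over all listed ran from 1436 to 1655 CPM for control, 1785 to 2420 for dKO-N and 1731 to 1827 for dKO-E. Of 8 tested intermediate progenitor markers 4 rose in each, with sums of 131 to 156, 208 to 273 and 215 to 280 CPM. Of their defining markers Sox2 was listed at 0 in all 12 libraries, and Pax6, Hes5, Eomes, Insm1 and Tfap2c were above 0 in all. Pax6 ran from 13.9 to 19.7 CPM in control, 27.0 to 42.2 in dKO-N and 18.2 to 28.7 in dKO-E, and Insm1 from 11.2 to 21.7, 29.4 to 58.5 and 25.5 to 37.7 CPM. Eomes overlapped with control in both knockouts, at 5.61 to 11.9 CPM in control, 2.72 to 18.9 in dKO-N and 5.03 to 9.38 in dKO-E, as did Hes5, at 0.864 to 2.07, 1.38 to 4.08 and 0.391 to 2.43 CPM. DESeq2 called 5 radial glia and 4 intermediate progenitor markers higher in dKO-N and 3 of each in dKO-E. Of 25 mature neuron genes 17 fell in dKO-N and 18 in dKO-E. Meningeal markers summed to 114 CPM in dKO-E 1 and 43.0 CPM in dKO-E 2, against 10.1 to 23.7 in all others. Of 9 tested vessel markers 0 passed in dKO-N with edgeR or DESeq2 (3 lower at an unadjusted p under 0.05) and 1 fell in dKO-E with edgeR and 0 with DESeq2. Their median log2 fold change was -0.46 and -0.28, and their sum ran from 118 to 128 CPM in control, 83.0 to 109.6 in dKO-N and 84.0 to 120.2 in dKO-E. The part of cell composition in the ribosomal protein values was not tested.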

How the data were processed

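The values are whole-number counts per gene, deposited by the authors as 1 file per library without normalization. The tools named in the submitters' processing notes are UMI-tools, STAR and HTSeq, with the mm10 build. Counting options are not stated in any source used here. Lines that name no gene (11.1% to 14.8% of reads) were left out. Names and positions came from GENCODE M21, which matched 99.6% of identifiers.

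Counts were scaled by TMM and filtered with filterByExpr (minimum count 10), which kept 11076 genes. They were tested with edgeR 4.0.16 (quasi-likelihood, robust, R 4.3.3) in 1 fit of all 12 libraries, 4 per group, with Benjamini-Hochberg adjustment over all genes and a threshold of 0.05. DESeq2 1.42.0 was an alternative. The others were library totals, no filter, the compared groups alone, omitted libraries, a replicate block, thinning to 722080 counts and a length offset. Depths of 722080 to 3502017 counts limit low genes, and floors and errors cover counting and library spread only. Since separate animals are not stated, p-values measure only how these libraries vary, and part of that may be technical. No 2 libraries of a group were alike within sampling noise (chi-square over degrees of freedom 1.56 to 5.45).

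The members and lists were chosen with earlier results of these data known. Named are all members that passed, the 6 with the highest level per exonic length, a fixed set with known roles, and up to 4 changed members per other list, apart from members whose values are not reported here (they stay in the counts and medians). Values outside that rule are marked where printed. Further lists (cell cycle, microglia, red blood cells, interneurons) gave 2, 0, 0 and 1 genes higher and 0, 0, 0 and 1 lower in dKO-N, and 1, 1, 0 and 1 higher and 0, 0, 0 and 1 lower in dKO-E. Of the choroid plexus list 0 genes passed the filter.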

Additional observations from a re-analysis of the deposited data

Results flagged for a closer look

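In 5 of 93 sets of 4 libraries examined, 1 library lay far from the other 3, where chance gives about 1 in 20. Rpl29 was at 44.2 CPM in control 2 and at 25.2 CPM in dKO-N 4, each far above the rest of its group. Rps14 was at 29.3 CPM in control 2, above 18.01 to 19.6 CPM in the other libraries labelled control, and Rps25 was at 23.3 CPM in control 3, above 15.5 to 15.98 CPM. Rps10 was at 41.5 CPM in dKO-N 4, below the others of that group (57.8 to 59.9 CPM). The causes were not tested.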

How the results depend on the processing

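For dKO-E against control, the count of 11 members called was 20 with library totals, 6 with DESeq2, 4 after thinning to equal depth, 3 without control 1 and 3, and 3 without dKO-E 3 and 4. Of the 4 called after thinning, 2 (Rpl11 and Rps2) were among the 11. With library totals the median over all genes was 0.14 and that of the members 0.31, so the members lay 0.17 above all genes, as with TMM (0.17). The share of calls over all genes that were higher was then 57.8% in dKO-N, 73.9% in dKO-E and 65.4% between the knockouts, against 44.5%, 50.04% and 45.5% with TMM. Between the knockouts the count of 0 became 1 (Rplp1, lower) with no filter. With 1 library left out the counts ran from 3 to 9 in dKO-N, 3 to 16 in dKO-E and 0 to 1 between the knockouts. The members' median ran from 0.07 to 0.23, 0.13 to 0.22 and -0.07 to 0.07 in those comparisons. No called value of a named member changed sign. The members' median between the knockouts, 0.01 in the fit of all libraries, was -0.07 without dKO-N 4 and -0.03 with the length offset. Of the values for named members, 1664 kept their side of the threshold, 72 were no longer past it and 25 were newly past it. Genes of the other lists did not enter these counts. Where no cause is built into the alternative, the cause was not tested.

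The replicate numbers in the labels did not pair the libraries: deviations of libraries with the same number correlated at -0.15 to 0.03 over 9755 genes. The replicate block gave 4 members in dKO-N (4.13% of all genes called higher) and 11 in dKO-E (8.83%), the same genes as without it. Between the knockouts it gave 0, against 4.51% of all genes called in either direction.

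At 722080 counts, the floor of 3 counts is near 4 CPM, so members at that level could not be compared.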

Other observations

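The mitochondrial ribosome, whose proteins are also encoded in the nucleus, gave smaller medians than the cytosolic one against control, and a larger one between the knockouts (0.10 against 0.01). Of its 65 tested protein genes, 0 passed in dKO-N with edgeR or DESeq2 (1 at an unadjusted p under 0.05). In dKO-E 3 rose with edgeR and 0 with DESeq2: Mrps14 (log2 fold change 0.83, edgeR adjusted p = 0.0314), Mrps31 (0.69, adjusted p = 0.0428) and Mrps35 (0.53, adjusted p = 0.0375). The list median was 0.07 in dKO-N and 0.14 in dKO-E. Its summed level was 745.5 to 799.8 CPM in control, 775 to 855 CPM in dKO-N and 831 to 893 CPM in dKO-E, so every dKO-E library was above every library labelled control. Of 62 tested nuclear genes of oxidative phosphorylation 0 passed in dKO-N with either tool (3 at an unadjusted p under 0.05), and in dKO-E Ndufa5 rose (0.88) and Ndufs7 fell (-0.72), with medians of 0.02 and 0.03, while DESeq2 called 0 higher and 1 lower there. Of 11 tested mitochondrially encoded genes, 4 had a fold change above 0 in dKO-E, and the list median was -0.13 in dKO-N and -0.16 in dKO-E. With edgeR, mt-Co3 rose in dKO-E (0.90, adjusted p = 0.0305) and 0 passed in dKO-N. DESeq2 called 1 higher and 0 lower in dKO-N and 1 higher and 1 lower in dKO-E.

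Of 10 ribosomal proteins with symbols outside the rule, 5 were tested. Rps3a2, at 3.59 CPM in control and 8.46 CPM in dKO-N, rose there (log2 fold change 1.19, edgeR adjusted p = 0.0472), while 0 rose with DESeq2. In dKO-E 0 passed with either tool, at an unadjusted p under 0.05 too. Rps3a2 is a near copy of Rps3a1, which did not pass (0.03, adjusted p = 0.930), and the level of each is uncertain for that reason.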
